A study of Rattus norvegicus with 4 samples.

Results

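ATP-binding cassette (ABC) transporters were followed in rat colon after mesenchymal stem cell transplantation (MSCT). Members were the transcript rows measured on all 4 arrays whose RefSeq accession is named Abc, a letter from A to G and a number in the RefSeq gene table, with 1 row per gene. They came to 29 of the 6963 named genes measured, and 18350 rows were measured in all. The RefSeq table names 58 such genes and pseudogenes. Abcb1b, Abcc12, Abcg3l4 and Abcg5 had a row that was blank on all 4 arrays, and no row was matched for the other 25. Levels are log2 of the deposited intensity, and every difference is MSCT minus control.

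The arrays held colon RNA of male Sprague Dawley rats, with 2 control arrays and 2 MSCT arrays. The sample titles and the methods do not say whether an array held RNA of 1 rat or of a pool. Each SD below is therefore a spread between arrays. Colitis is produced in this model by trinitrobenzene sulfonic acid (TNBS) given into the colon in ethanol. MSCT rats received purchased mesenchymal stem cells carrying green fluorescent protein through the tail vein, and control rats received none. The sample descriptions call the control rats normal, whereas the series design and the study's methods describe control rats with inflammatory bowel disease, so if the descriptions hold, colitis and MSCT cannot be told apart here. Strain, colitis model and route come from the methods, which give more than one sampling day. The rats' age and the day of these arrays are not given in the labels. The samples were pieces of whole tissue, in which fewer cells of a type and less RNA per cell cannot be told apart.

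ABC proteins bind and hydrolyse ATP, and most of them use it to move a substrate across a membrane. In the gut, exporters on the luminal and basal faces of the epithelium limit the uptake of drugs, toxins and conjugates. Other members hand cholesterol and phospholipid to lipoproteins, work inside mitochondria, lysosomes and peroxisomes, or regulate potassium channels, and the F subfamily has no membrane part and acts in translation.

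Promoter sequences are shown for the members with the smallest p-values in the comparison of the groups, so that the genes behind the values can be recognised. They are the 250 bases before the start that the RefSeq promoter table (build GRCr8) uses, for Abcd4 (chr6:109991984-109992233, minus strand), Abcb9 (chr12:38159902-38160151, plus strand) and Abcb1a (chr4:26397649-26397898, minus strand). These starts lie inside the full extent of each gene in RefSeq, so other annotated transcripts may begin further upstream. Each runs 5′ to 3′ along the gene, and capitals mark the GC box GGGCGG on either strand. The table gave no promoter for 7 members, among them Abcc5, Abca17, Abcb11, Abcc3, Abcc8 and Abcg1.
Abcd4: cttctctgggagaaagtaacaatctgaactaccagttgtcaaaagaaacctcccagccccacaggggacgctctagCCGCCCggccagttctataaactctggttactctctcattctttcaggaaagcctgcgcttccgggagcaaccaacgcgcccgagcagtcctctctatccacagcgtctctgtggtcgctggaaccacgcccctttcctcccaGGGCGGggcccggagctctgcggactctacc
Abcb9: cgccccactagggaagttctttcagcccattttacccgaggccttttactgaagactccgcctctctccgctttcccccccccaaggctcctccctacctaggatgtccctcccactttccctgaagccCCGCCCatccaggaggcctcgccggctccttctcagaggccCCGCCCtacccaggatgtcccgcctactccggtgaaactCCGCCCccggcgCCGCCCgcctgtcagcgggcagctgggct
Abcb1a: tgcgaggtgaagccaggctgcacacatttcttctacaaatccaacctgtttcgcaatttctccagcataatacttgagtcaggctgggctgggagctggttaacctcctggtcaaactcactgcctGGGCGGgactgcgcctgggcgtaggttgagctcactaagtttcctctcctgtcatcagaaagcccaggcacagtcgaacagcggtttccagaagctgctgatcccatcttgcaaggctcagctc

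The Abcd4 window held 2 GC boxes, the Abcb9 window 4 and the Abcb1a window 1. Over the 22 members with a promoter, 19 (86.4%) held a GC box, beside 54.7% of the promoters of 6003 measured genes and 30.5% of all 33469 promoters of this length. Median GC content was 61.2% in the members, 59.2% in the measured genes and 51.2% in all promoters. The box CCAAT, searched on both strands, was in 8 of the 22 (36.4%), beside 35.7% of the measured genes. The E-box CACGTG was in the windows of Abca1 and Abcb6, which is 9.09% of the members beside 7.76% of the measured genes. The TATA box TATAAA was in those of Abca1, Abcd4 and Abcg8 (13.6% beside 8.1%). A match describes the letters of the window and is not a measured binding site.

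Of the 29 ABC genes, 13 were higher and 16 lower in MSCT, and the median difference was -0.087 on the log2 scale. Over all 18350 rows the median was -0.019, and 48.0% of the rows were higher in MSCT, beside 44.8% of the ABC genes. Among the 7062 named rows, to which all members belong, the median was 0.052 and 55.6% were higher. A screen at the thresholds of the study (fold change over 2 and unadjusted p under 0.05), applied here to the p of limma, was passed by 1 member, the lysosomal cobalamin transporter Abcd4 (3.45% of the 29), beside 4.63% of all rows. Abcd4 did not pass at the same thresholds by the plain equal-variance test that the study's statistics imply, called the methods' t-test, which called 0 members, beside 2.11% of all rows. An unadjusted limma p under 0.05 was reached by 4 members (13.8%), beside 12.0% of all rows. Of these, Abcb1a was higher in MSCT, beside 4.80% of all rows, and Abcd4, Abcc5 and Abcb9 were lower, beside 7.17%. Of the 7062 named rows 12.2% reached it, 477 higher and 386 lower in MSCT. No member passed a Benjamini-Hochberg adjusted p of 0.05 by limma, the smallest being 0.323, and the share of all rows that passed it was 0%. The shares of members called were thus near the background of the array.

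Without the fold limit, the methods' t-test gave a p under 0.05 for Abcc5 among the members, beside 9.66% of all rows. The smallest two-sided p that exact permutation of these 4 arrays allows is 0.333, so no such test could pass.

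The groups did not overlap for 14 members (48.3%), beside 45.8% of all rows. Both MSCT arrays lay above both control arrays for 6 genes, among them Abcb1a, Abcc3, Abca1, Abca5 and Abcg1, beside 21.3% of all rows. Both lay below for Abcd4, Abcc5, Abcb9, Abcb8, Abcb10, Abca7, Abca17 and Abcf3, 8 genes beside 24.5%. Of the 7062 named rows, both MSCT arrays lay above in 1939 and below in 1436. A fold over 1.5 was seen for 5 members (17.2%), Abcd4, Abcb9, Abcc5, Abcb1a and Abca5, beside 21.2% of all rows. For 14 members (48.3%) the 95% interval of limma lay inside a 2-fold difference in either direction, beside 51.0% of all rows, and for the other 15 a 2-fold difference was within the interval.

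**Figure D1:**
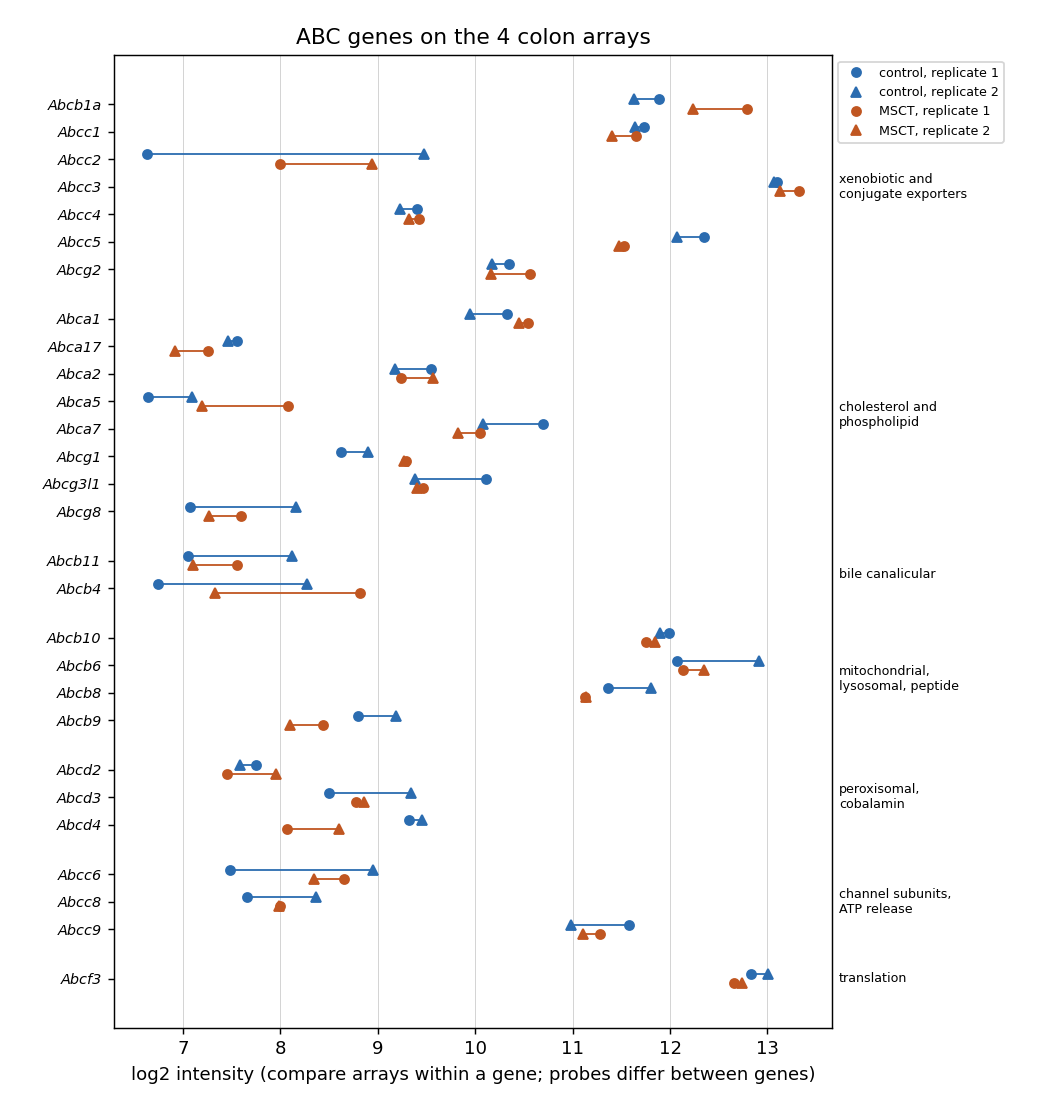
Log2 intensity of the ABC genes named on the y axis (x axis) in the control arrays (blue) and MSCT arrays (orange), by role, with circles for replicate 1, triangles for replicate 2 and a line joining the arrays of a group. The orange line lies wholly to the left of the blue one for Abcd4, Abcb9 and Abcc5 and to the right for Abcb1a, while the control arrays of Abcc2 lie 7.18-fold apart.

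The exporters of drugs and conjugates were 7 members, of which 5 were higher and 2 lower in MSCT, with a median difference of 0.10. Abcb1a (NM_133401) encodes P-glycoprotein, which pumps lipophilic drugs out of enterocytes and lymphocytes. Its log2 level was 11.89 and 11.63 in the control arrays and 12.79 and 12.24 in the MSCT arrays, which are intensities of 3784 and 3166 against 7083 and 4822. Both MSCT arrays were above both control arrays, and the MSCT arrays differed more from each other than the control arrays did. The means were 11.76 ± 0.18 in control and 12.51 ± 0.39 in MSCT (SD, n = 2 each). The difference of 0.76 (SE 0.27, 95% interval 0.028 to 1.48) was 1.69-fold, with an unadjusted limma p of 0.0447 and a Benjamini-Hochberg adjusted p of 0.409. Of the 4 fits that leave out 1 array, only the one without MSCT replicate 2 kept an unadjusted limma p under 0.05 (0.0301), and the difference ran from 0.48 without MSCT replicate 1 to 1.03. With all 4 arrays the unadjusted p was 0.0527 with array weights and 0.132 by the methods' t-test. Its near-identical neighbour Abcb1b, the other rodent P-glycoprotein gene, was blank on all 4 arrays. Signal from the Abcb1b transcript on the Abcb1a probes was not tested.

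Abcc5 (NM_053924), an exporter of cyclic nucleotides, was the member with the most alike MSCT arrays among those with a p under 0.05. Its log2 level was 12.35 and 12.07 in control and 11.53 and 11.47 in MSCT. All MSCT values were below all control values, at means of 12.21 ± 0.20 and 11.50 ± 0.041 (SD, n = 2 each). The difference of -0.71 (SE 0.20, 95% interval -1.26 to -0.17) was 1.64-fold, with an unadjusted limma p of 0.0213, an adjusted p of 0.340 and a p of 0.0380 by the methods' t-test. With 1 array left out the difference ran from -0.85 to -0.57, and the unadjusted limma p stayed under 0.05 only without control replicate 2 (0.0254).

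Abcb1a and Abcc5 export partly different substrates, and both lay in the brightest 25% of the rows. The other exporters apart from Abcc2 had smaller differences. Abcc3, which sends glucuronides and bile salts across the basal membrane, was at 13.09 and 13.07 in control and 13.33 and 13.13 in MSCT, a difference of 0.15 (SE 0.19, 95% interval -0.37 to 0.66). Abcc1, an exporter of glutathione conjugates and leukotriene C4, differed by -0.15 (SE 0.20, 95% interval -0.69 to 0.38). The luminal drug pump Abcg2 was at 10.35 and 10.18 in control and 10.56 and 10.16 in MSCT, so the MSCT arrays enclosed the control arrays. Its difference was 0.10 (95% interval -0.52 to 0.72). Abcc4, which exports cyclic nucleotides and prostaglandins, differed by 0.055 (95% interval -0.46 to 0.57). For these 4 exporters a difference of 2-fold lay outside the interval.

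Abcc2, the luminal exporter of glutathione and glucuronide conjugates, could not be placed. Its log2 level was 6.63 and 9.47 in control and 7.99 and 8.94 in MSCT, so the MSCT arrays lay between the control arrays. The difference of 0.41 (SE 1.02, 95% interval -2.31 to 3.14) changed sign with the array left out, from -1.01 to 1.84.

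**Figure D2:**
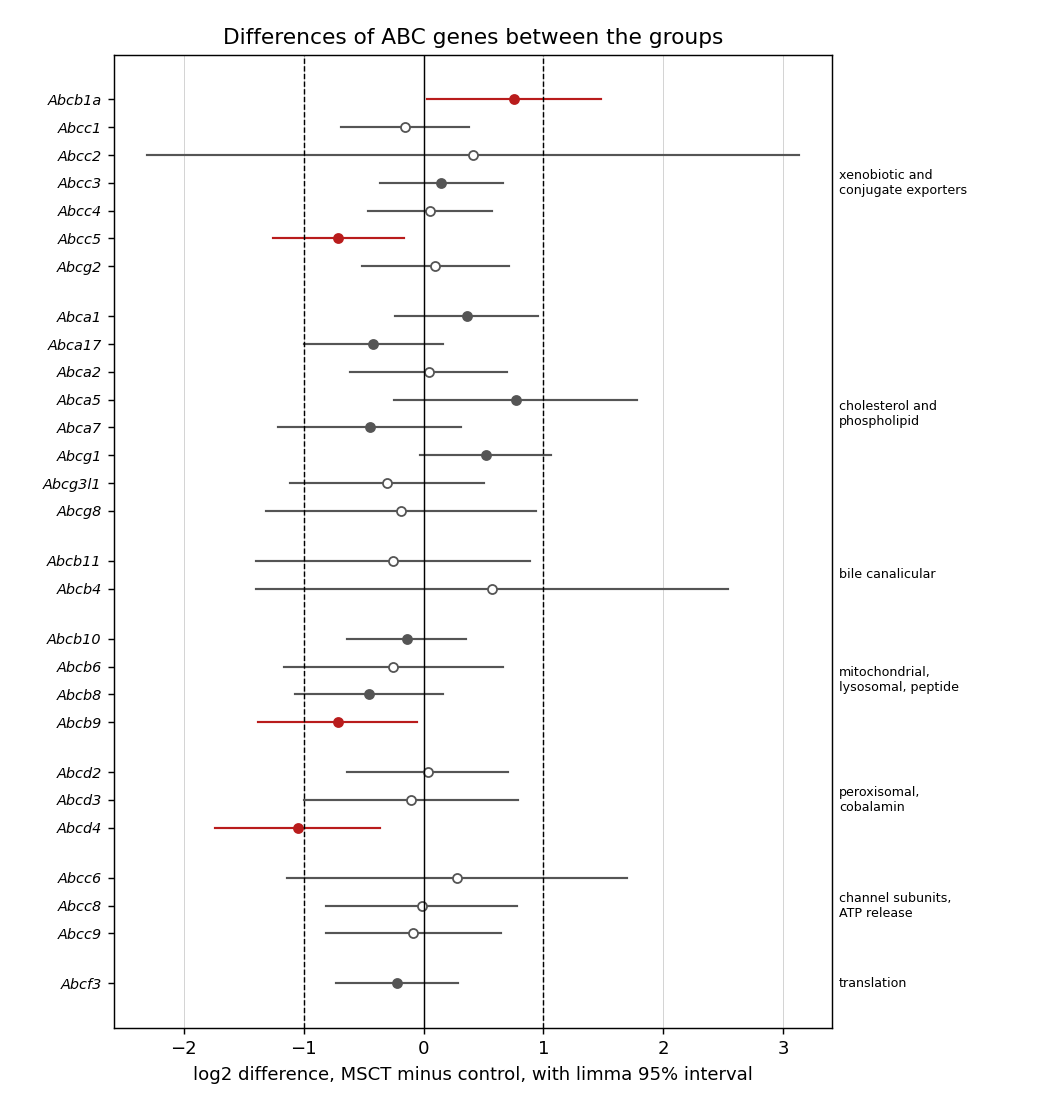
Difference of the ABC genes named on the y axis between the groups on the log2 scale (x axis) with the limma 95% interval, by role, in red for an unadjusted p under 0.05 and filled where the groups do not overlap. Dashed lines mark 2-fold. Abcd4, Abcb9 and Abcc5 are red to the left of 0, Abcb1a is red to the right, and Abcc2 has the widest interval.

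The transporters of cholesterol and phospholipid came to 8 members, 4 higher and 4 lower in MSCT, with a median difference of -0.071, and 0 of them had an unadjusted limma p under 0.05. Abca1, which loads cholesterol onto apolipoprotein A-I, was at 10.33 and 9.94 in control and 10.54 and 10.45 in MSCT. Abcg1, which passes cholesterol to high-density lipoprotein, was at 8.62 and 8.90 in control and 9.29 and 9.27 in MSCT. Both genes of this efflux pathway of macrophages had their MSCT arrays above their control arrays, beside 21.3% of all rows. For Abca7, a transporter of phagocytic cells, both MSCT arrays lay below both control arrays (-0.45). The difference was 0.36 for Abca1 (SE 0.22, 95% interval -0.24 to 0.96, adjusted p = 0.573 by limma). For Abcg1 it was 0.52 (SE 0.20, 95% interval -0.026 to 1.06), with an unadjusted limma p of 0.0576 and an adjusted p of 0.433.

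Of 15 leukocyte markers listed 8 were measured, 7 of them higher in MSCT. Cd68 (1.29), Cd53 (1.07) and Csf1r (1.00) passed the limma screen (37.5% of the 8), beside 4.63% of all rows, and 0 had an adjusted limma p under 0.05. The other markers, chosen after their values were seen, had smaller differences, at -0.041 for the monocyte marker Cd14, 0.13 for Cd3g, 0.37 for Cd4, 0.064 for Cd48 and 0.0058 for Cd8a. The summed intensity of the 8 was 15672 to 16060 in control and 17666 to 20065 in MSCT. Ptprc, Cd3d, Cd3e, Cd79b, Ms4a1 and Itgam were among those not measured here, so the list does not cover B cells. The part of leukocytes in the levels of Abca1, Abcg1 and Abcb1a was not tested.

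Abca5, a lysosomal member, had the largest difference of the lipid group. It was at 6.64 and 7.09 in control and 8.08 and 7.19 in MSCT, which are intensities of 99.5 and 137 against 270 and 146. Its level was within the dimmest 25% of the rows, and MSCT replicate 1 stood apart from the other 3 arrays. The difference of 0.77 (SE 0.38, 95% interval -0.25 to 1.78) had an unadjusted limma p of 0.106 and an adjusted p of 0.505. It ran from 0.32 without MSCT replicate 1 to 1.21 without MSCT replicate 2, and in the latter case the unadjusted limma p was 0.0246.

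On the lower side of the lipid group, Abca7, a phospholipid transporter of phagocytic cells, was at 10.70 and 10.07 in control and 10.05 and 9.83 in MSCT (difference -0.45, SE 0.29). Abca17 differed by -0.42 (SE 0.22) with an adjusted limma p of 0.517, in the dimmest 25% of the rows. Abcg3l1, a rodent gene related to Abcg2, differed by -0.31 (SE 0.30). Abca2, a sterol transporter of lysosomes, was on the higher side, by 0.045 (SE 0.25). Abcg8, which forms the sterol exporter of enterocytes and hepatocytes with Abcg5, was at 7.07 and 8.16 in control and 7.59 and 7.27 in MSCT. Abcg5, its neighbour in gene order and its obligate partner, was blank on all 4 arrays, so the pair could not be compared.

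Abcb4 and Abcb11, known from the bile canaliculus of the liver, move phosphatidylcholine and bile salts. Abcb4 was at 6.74 and 8.27 in control and 8.82 and 7.33 in MSCT, with the control arrays 2.90-fold and the MSCT arrays 2.80-fold apart. Abcb11 was at 7.05 and 8.12 in control and 7.55 and 7.10 in MSCT, with the control arrays 2.10-fold apart. Each group overlapped the other for both genes. The 95% interval of the difference was -1.40 to 2.54 for Abcb4 and -1.40 to 0.89 for Abcb11 on the log2 scale.

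Of the 5 members grouped as mitochondrial, lysosomal and peptide transporters 1 was higher and 4 lower in MSCT, with a median difference of -0.25. Beside this, 48.0% of all rows and 55.6% of the named rows were higher. Abcb9 (NM_022238), which carries peptides into lysosomes, was at 8.79 and 9.18 in control and 8.44 and 8.10 in MSCT. The groups did not overlap, with means of 8.99 ± 0.28 and 8.27 ± 0.24 (SD, n = 2 each). The difference of -0.72 (SE 0.25, 95% interval -1.38 to -0.051) was 1.64-fold, with an unadjusted limma p of 0.0400 and an adjusted p of 0.397. With 1 array left out it ran from -0.91 to -0.52, and the unadjusted limma p stayed under 0.05 only without control replicate 1 (0.0380). With all 4 arrays the unadjusted p was 0.0601 with quantile normalization, 0.0507 with equal array medians, 0.0604 with a replicate block, 0.0851 with a robust variance trend and 0.109 by the methods' t-test.

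Abcb8, a mitochondrial member, was at 11.37 and 11.80 in control and 11.12 and 11.14 in MSCT, a difference of -0.46 (SE 0.23) with an adjusted limma p of 0.513. Abcb10, of the mitochondrial haem pathway, differed by -0.14 (SE 0.19). Abcb6, a porphyrin transporter, was at 12.07 and 12.91 in control and 12.13 and 12.35 in MSCT, so the MSCT arrays lay between the control arrays.

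The D subfamily holds peroxisomal importers of fatty acids and the lysosomal Abcd4, which releases cobalamin (vitamin B12) to the cytosol. Abcd4 (NM_001013100) was at 9.32 and 9.46 in control and 8.07 and 8.60 in MSCT. The control arrays were close together, the MSCT arrays were 1.45-fold apart, and all MSCT values were below all control values. The means were 9.39 ± 0.10 and 8.34 ± 0.38 (SD, n = 2 each). The difference of -1.05 (SE 0.26, 95% interval -1.74 to -0.36) was 2.07-fold, with an unadjusted limma p of 0.0123, an adjusted p of 0.323 and a p of 0.0628 by the methods' t-test. It was -0.98 without control replicate 2 and -0.78 without MSCT replicate 1, with an unadjusted limma p of 0.0557 and 0.0628, and without either of these arrays Abcd4 no longer passed the screen. Without control replicate 1 it was -1.12 and without MSCT replicate 2 it was -1.32, and Abcd4 passed.

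The peroxisomal importers Abcd2 and Abcd3 differed by 0.035 (SE 0.25, 95% interval -0.64 to 0.71) and -0.10 (SE 0.34). Of 9 listed peroxisomal partners 7 were measured, 2 higher and 5 lower in MSCT, with a median difference of -0.088, and 0 had an unadjusted limma p under 0.05.

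**Figure D3:**
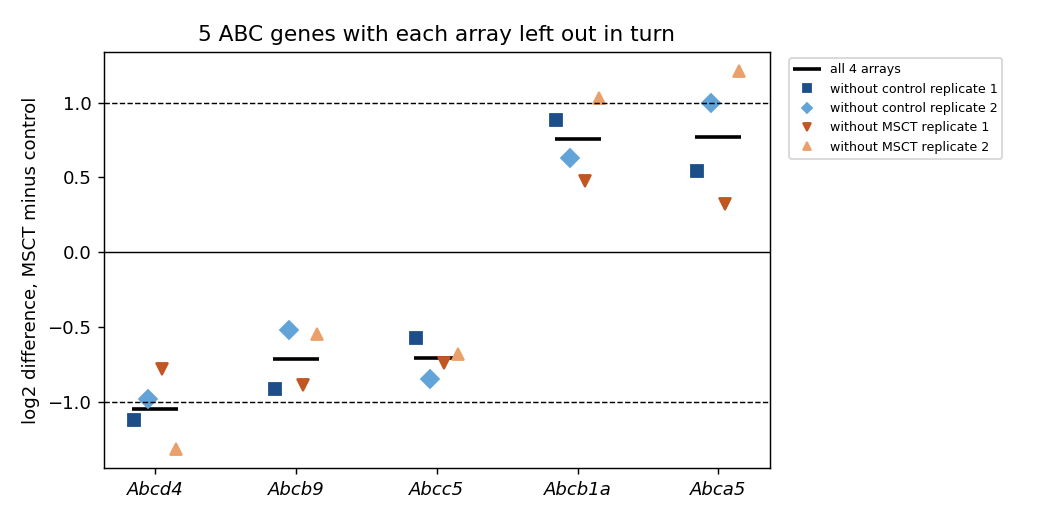
Log2 difference, MSCT minus control (y axis), of the 5 ABC genes with a fold over 1.5, for all 4 arrays (black bar) and with each array left out in turn (symbols), with dashed lines at 2-fold. The groups of these 5 genes do not overlap, so leaving out 1 array could not bring a difference across 0. Abcd4 runs from -1.32 to -0.78.

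The regulatory subunits of ATP-sensitive potassium channels, Abcc8 and Abcc9, had overlapping groups. Abcc9, the subunit of muscle, was at 11.58 and 10.99 in control and 11.28 and 11.11 in MSCT (difference -0.087, SE 0.27). Abcc8, the subunit of neurons and endocrine cells, had intensities of 201 and 330 in control and 256 and 254 in MSCT, so the MSCT arrays lay between the control arrays. Its difference of -0.016 (SE 0.30) turned positive with quantile normalization (0.057) and with equal array medians (0.022). Their pore-forming partners Kcnj8 and Kcnj11 differed by 0.36 (SE 0.31) and 0.80 (SE 0.37), with an adjusted limma p of 0.664 and 0.486. The markers of smooth muscle summed to intensities of 158052 to 185284 in control and 171323 to 173613 in MSCT, so the MSCT range lay inside the control range.

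Abcc6, which mediates release of ATP from cells, was at 7.48 and 8.95 in control and 8.65 and 8.34 in MSCT, a difference of 0.28 (SE 0.53). Abcf3, a soluble member, was at 12.83 and 13.00 in control and 12.65 and 12.74 in MSCT. The groups of Abcf3 did not overlap, but its difference of -0.22 (SE 0.19, 95% interval -0.73 to 0.29) had an adjusted limma p of 0.675. Of 6 partners of ribosome recycling and termination 5 were measured and all of these were higher in MSCT (median 0.29), and 0 had an unadjusted limma p under 0.05.

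The control arrays stood further apart from each other for some ABC genes than for most rows. They were more than 2-fold apart for 5 members (17.2%), Abcc2, Abcb4, Abcc6, Abcg8 and Abcb11, beside 8.73% of all rows. In each of the 5 control replicate 2 was the higher one, beside 5.43% of all rows with such a gap in that direction. For 4 of the 5, all but Abcb4, both MSCT arrays lay between the control arrays. This was so for 9 of the 29 members and 2906 of the 18350 rows. Picking genes with a wide control gap makes it more likely. The MSCT arrays were more than 2-fold apart for 1 member, Abcb4 (3.45%), beside 7.49% of all rows. All 5 genes belonged to the dimmer 50% of the rows, which held 17 members, and 5 of 17 is 29.4%, beside 16.2% of all rows of that brightness. The brighter 50% held 12 members with 0 such gaps. Over all members the median gap of the control arrays was 0.38 on the log2 scale, beside 0.31 in all rows, and that of the MSCT arrays was 0.23, beside 0.24.

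The same gap was counted in the related lists. Control replicate 2 was more than 2-fold above replicate 1 in 2 of 13 sterol and lipoprotein partners, 1 of 5 bile acid and anion carriers and 2 of 21 regulators, and replicate 1 was that far above replicate 2 in 1, 0 and 0. In these lists the one in the opposite direction was Lpl, lipoprotein lipase, at 9.98 and 8.70 in control. The carrier Slco3a1 also had replicate 1 higher, at 12.47 and 11.71. Among the cell type markers, replicate 1 was that far above replicate 2 in 1 of 8 for leukocytes (Cd48) and 1 of 6 for fibroblasts (Lum). Replicate 2 was that far above replicate 1 in 1 of 7 for enteric neurons and glia (Gfap). The epithelial, smooth muscle and endothelial markers had no such gap. The following genes were chosen for this gap after their values were seen. Apoa4, an apolipoprotein of enterocytes, was at 8.92 and 10.96 in control and 10.70 and 11.08 in MSCT. The bile acid carrier Slc10a1 was at 6.66 and 8.21 in control and 8.24 and 8.38 in MSCT. Nr0b2, a repressor induced by bile acids, was at 5.95 and 8.01 in control and 7.65 and 7.50 in MSCT. In these 3 genes, control replicate 1 was the low array and control replicate 2 was near or above the MSCT arrays. The cause of the gap between the control arrays was not tested.

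**Figure D4:**
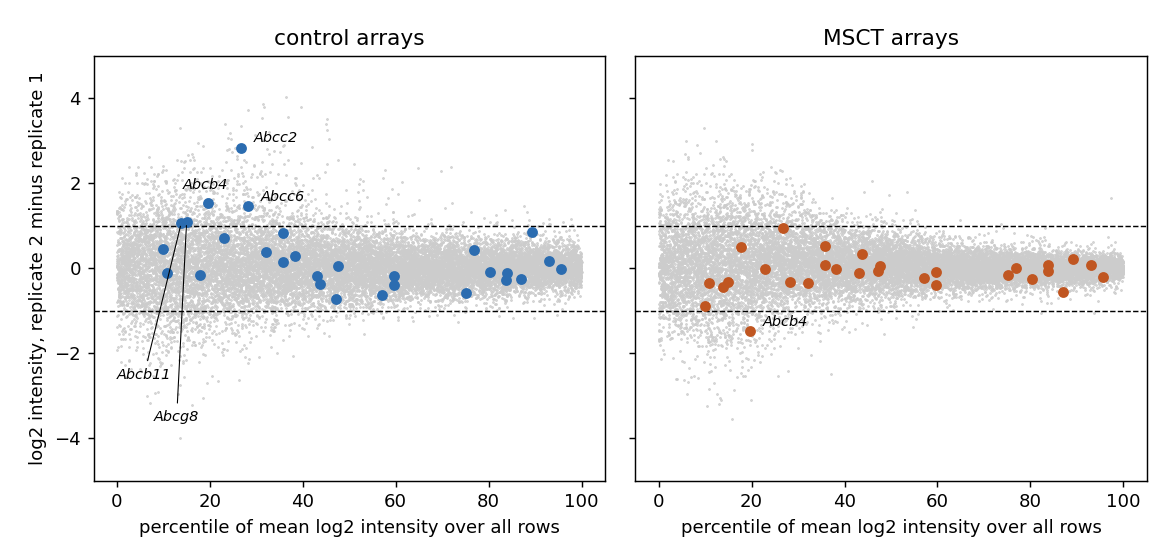
Difference between replicate 2 and replicate 1 within the control group (left) and the MSCT group (right) in log2 intensity (y axis) against the percentile of the mean level (x axis), for the 29 ABC genes (coloured) and all 18350 rows (grey), with dashed lines at 2-fold. The 5 ABC genes past 2-fold in control lie above the upper line in the dimmer 50% of the rows.

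The regulators of ABC genes were described for 21 measured of 22 listed nuclear receptors and transcription factors. Of these 8 were higher and 13 lower in MSCT, with a median difference of -0.20, and 0 passed the screen. An unadjusted limma p under 0.05 was reached by 1 higher and 2 lower genes, which are named here after their values were seen. Srebf2, the activator of cholesterol synthesis, was at 11.19 and 11.22 in control and 10.21 and 10.27 in MSCT (difference -0.97, SE 0.18, adjusted p = 0.276 by limma). Vdr, the vitamin D receptor, was at 13.52 and 13.69 in control and 12.87 and 12.84 in MSCT (difference -0.75, SE 0.19, adjusted p = 0.324). Pparg, a receptor for fatty acids, was at 11.05 and 10.93 in control and 11.66 and 11.47 in MSCT (difference 0.58, SE 0.19, adjusted p = 0.386). Nr1h3, a liver X receptor that activates Abca1 and Abcg1, differed by 0.56 (SE 0.33, adjusted p = 0.558 by limma), and its groups overlapped. The other liver X receptor, Nr1h2, differed by -0.023 (SE 0.19). Rxra differed by -0.50 (SE 0.20), Rxrb by -0.35 (SE 0.18), Nr1i2 by -0.48 (SE 0.18) and Nr1i3 by -0.40 (SE 0.19). These were also chosen after their values were seen.

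Sterol and lipoprotein partners were measured for 13 of 18 listed genes, 7 higher and 6 lower in MSCT, with 2 higher and 1 lower past the screen. Soat1, which esterifies the cholesterol that Abca1 and Abcg1 would export, was at 8.67 and 8.71 in control and 10.23 and 10.32 in MSCT. Its difference of 1.59 (SE 0.18) had an adjusted p of 0.257 by limma. Apob, the structural protein of chylomicrons, differed by 1.11 (SE 0.27, adjusted p = 0.319). Cyp27a1, which oxidises sterols, differed by -1.20 (SE 0.41, adjusted p = 0.394). Of 14 bile acid and organic anion carriers 5 were measured, and Slco4a1 was lower past the screen, at 9.29 and 9.39 in control and 8.63 and 7.80 in MSCT (difference -1.12, SE 0.33, adjusted p = 0.347).

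Among ABC proteins with other symbols, the chloride channel Cftr was at 9.99 and 10.47 in control and 10.69 and 10.54 in MSCT, a difference of 0.38 (SE 0.25) with an adjusted limma p of 0.588. The peptide transporters of antigen presentation differed by -0.012 (SE 0.20, Tap1) and 0.083 (SE 0.18, Tap2). The difference of Tap1 was 0.026 with equal array medians.

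The arrays had median intensities of 848 to 893 over the measured rows, and their medians differed by at most 0.075 on the log2 scale. With 2 arrays per group, that number limits the precision of every value above. Reference genes differed by 0.12 (Actb), -0.17 (B2m), -0.19 (Gapdh), 0.44 (Hprt1) and 0.16 (Ppia), and 0 of the 5 had an unadjusted limma p under 0.05. Of 17 epithelial markers 13 were measured, 10 of them higher in MSCT, with Tff3 past the screen (1.49) and summed intensities of 242971 to 243698 in control and 261617 to 270376 in MSCT. Markers of enteric neurons and glia, 5 of 7 lower in MSCT and Elavl4 past the screen (-1.06), summed to 9236 to 9460 in control and 6903 to 7293 in MSCT. Fibroblast markers, 5 of 6 higher in MSCT, summed to 39717 to 55472 and 61312 to 65838. Of 5 endothelial markers 4 were higher, by 0.85 (Eng), 0.59 (Flt1), 0.29 (Pecam1) and 0.053 (Kdr), while Cav1 differed by -0.093. Eng had an unadjusted limma p of 0.00797 and an adjusted p of 0.298. These values were added after they were seen. The 5 summed to 6629 to 9295 in control and 7728 to 8110 in MSCT. Cav1 gave most of both sums, at intensities of 5438 to 7569 in control and 5946 to 6083 in MSCT. For the endothelial markers alone, the MSCT range of the sum lay inside the control range. The part of these cell types in the levels of Abcd4, Abcc5, Abcb9 and Abcb1a was not tested.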

How the data were processed

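Colon RNA of control and MSCT rats was hybridised to one-colour NimbleGen arrays, 2 per group. The authors deposited linear intensity values, with 1 row per RefSeq transcript and 1 column per array. The submitters' processing notes name RMA, and its settings and the rule that left 8070 of 26420 rows (30.5%) blank are not given in the sources used here. Values of the 18350 measured rows were converted to log2 intensity from the deposited table, with no pseudocount, scaling or filter.

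Rows were named through the RefSeq gene table (GRCr8), which named 7062 measured rows. Each ABC gene had 1 measured row. The groups were compared by lmFit and eBayes of limma 3.58.1 (R 4.3.3), and p-values were adjusted by Benjamini-Hochberg over all 18350 rows. The study states the thresholds of the screen and names no test for the arrays. Intervals are limma 95% intervals. In 20 simulations of this comparison on 18350 rows, the screen recovered 94.0% of 200 rows changed 4-fold, and 1.49% of unchanged rows passed it. Smaller changes were not simulated. The simulated noise was independent between rows, with no effect shared within an array. The 1.49% is therefore not a false positive rate for these arrays.

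The members, role groups and related lists were chosen with earlier results of these data known. Array values and statistics were set out for members past the screen, with an unadjusted p under 0.05, or with groups that do not overlap and a fold over 1.5, and other members got briefer values. Of the related and marker lists the rule named members past the screen and reference genes, and further genes of those lists (Cftr, Tap1, Tap2, Kcnj8, Kcnj11, Nr1h3 and those said so) were chosen after their values were seen. Array values of members outside that rule were added likewise. Alternatives were scaling, dim rows, variance model, array weights, test, replicate block, fold limit, pseudocount and leaving out each array. Of the members, 1 is counted but not reported here by name.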

Additional observations from a re-analysis of the deposited data

How the results depend on the processing

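Abcd4 was the 1 member past the screen, and the count stayed at 1 with quantile normalization, equal array medians, array weights, a robust variance trend or without the dimmest 25% of rows. It was 4 with a fold limit of 1.5, and 0 with 100 added to each intensity, by the methods' t-test or without the dimmest 50% of rows, where 12 members were tested and Abcd4 was not among them. With 1 array left out it ran from 0 (without MSCT replicate 1) to 3 (without MSCT replicate 2). The count of members with an unadjusted limma p under 0.05 was 4, 1 by the methods' t-test, and 0 (without MSCT replicate 1) to 6 (without control replicate 2). The median difference of the members was -0.15 without the dimmest 50% of rows, and ran from -0.14 when control replicate 1 was left out to 0.015 when control replicate 2 was. The labels do not say that replicate numbers pair the rats, and the deviations of same-numbered arrays correlated at 0.23 over all rows and 0.033 over the members. With a replicate block, 1 member passed the screen and 3 had an unadjusted limma p under 0.05, beside 971 and 2686 of all rows. No member had an adjusted limma p under 0.05 under any alternative, although 387 of all rows did with the robust variance trend and 247 without the dimmest 50% of rows. Other rules for 1 row per gene could not change a value.

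Of the 29 members 15 kept their sign under every alternative and 14 did not. For the 14 members whose groups do not overlap, leaving out 1 array could not change the sign. The sign changed with the scaling for Abcc8 (0.057 with quantile normalization, 0.022 with equal array medians) and Tap1 (0.026 with equal array medians). With 1 array left out the differences ran from -0.14 to 0.23 for Abca2, -0.79 to 0.28 for Abcb11, -0.20 to 1.34 for Abcb4, -0.67 to 0.17 for Abcb6, -1.01 to 1.84 for Abcc2, -0.032 to 0.14 for Abcc4, -0.45 to 1.01 for Abcc6, -0.37 to 0.34 for Abcc8 and -0.38 to 0.21 for Abcc9. They ran from -0.22 to 0.29 for Abcd2, -0.52 to 0.32 for Abcd3, -0.10 to 0.30 for Abcg2, -0.67 to 0.059 for Abcg3l1 and -0.73 to 0.36 for Abcg8. Among other genes they ran from -0.062 to 1.97 for Apoa4, -0.0049 to 0.73 for Kcnj8, -0.050 to 1.25 for Lcat, -0.43 to 1.63 for Nr0b2 and -0.11 to 0.089 for Tap1. Why each changed was not tested. Of the 17 members in the dimmer 50% of rows 5 had control arrays more than 2-fold apart, and of the 12 in the brighter 0 did, although Abcb6, Abcc9 and Abcg2 of the brighter ones also changed sign with 1 array left out.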
